A study of Saccharomyces cerevisiae with 4 samples.

Results

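The genes described here serve the biotin supply of the budding yeast Saccharomyces cerevisiae. They are the synthesis genes BIO2, BIO3 and BIO4, the precursor permease gene BIO5, the biotin transporter gene VHT1 and the biotin ligase gene BPL1. They were taken by name as a pathway, 6 of the 5449 yeast genes measured, and each of the 6 was read by 1 probe set annotated to it alone. The strain differences on these same arrays were known when the list was made, so the genes count as chosen by those values, which are given as a description without a test. Total RNA from 4 cultures was hybridized to Affymetrix Yeast Genome arrays, 2 of a wild type and 2 of a strain labelled Sen1ΔN, each from an independent experiment. Sen1 is a nuclear helicase that helps to end transcription of many non-coding RNAs. Both strains grew at 24 °C in synthetic complete medium with 2% glucose, from an OD600 of 0.4 to a harvest at 1.5 in exponential phase.

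The strains differ in more than SEN1. The wild type is BY4741, a derivative of the laboratory strain S288C. Its mating type is MATa, and its label lists his3_delta_1 and leu2_delta_0 as well as met15_delta_0 and ura3_delta_0. The Sen1ΔN strain is MATα, and its label lists ade2-101 and his3-200, then lys2-801 and trp1-_delta_1, and also ura3-52. Its sen1 allele is written with the LEU2 locus, as leu2-_delta_1::sen1-2. Both strains thus carry alleles of HIS3, LEU2 and URA3. Every difference below is one between these strains, in which the sen1 allele, mating type and background cannot be told apart.

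Biotin is the cofactor of carboxylases, among them the acetyl-CoA carboxylase that starts fatty acid synthesis and the pyruvate carboxylases that refill the tricarboxylic acid cycle. Yeasts of the S288C type lack the first steps of biotin synthesis and live on biotin taken up by Vht1, a proton symporter of the plasma membrane, or on intermediates of the pathway. Bio5 brings in the intermediates keto-aminopelargonic and diaminopelargonic acid. Bio3 is the aminotransferase that converts the first of these into the second, with S-adenosylmethionine as the amino donor. Bio4 makes dethiobiotin, and Bio2, a mitochondrial iron-sulfur enzyme, inserts the sulfur atom to give biotin. Bpl1 then attaches biotin to the enzymes that need it. In yeast VHT1 and BIO5 are known to be induced when biotin is scarce. Iron shortage is known to raise VHT1 and to lower the synthesis genes.

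The arrays were set in context by a few series-wide measures. The SEN1 probe set read 10.66 and 10.57 log2 for the wild type and 12.01 and 12.17 for Sen1ΔN, a difference of 1.47 (SE 0.09, limma adjusted p = 0.000239). Which part of SEN1 it probes is not known here, so it does not check the truncation. All 5 MATa-specific and all 4 MATα-specific genes examined had separate arrays in the direction of the labels, with differences of -5.25 to -2.91 and of 2.01 to 6.97. LEU2 was higher in Sen1ΔN by 6.15 and HIS3 was lower by 5.81 log2. LEU2 read 6.01 and 6.07 in the wild type, and HIS3 6.36 and 5.91 in Sen1ΔN, where the labels list leu2_delta_0 and his3-200. The labels also list a leu2 allele in Sen1ΔN and a his3 allele in the wild type. LEU2 read 12.17 and 12.21 in the former, and HIS3 11.93 and 11.94 in the latter. What these alleles leave of the transcripts is not known here. MET17, also called MET15, lay below background in the wild type at 3.83 and 4.48, where the label lists met15_delta_0, and read 12.13 and 12.09 in Sen1ΔN. URA3, with an allele listed in both strains, read 5.08 and 5.21 in the wild type, below background, and 7.94 and 8.05 in Sen1ΔN. In 6 yeast control transcripts whose 5′ signal lay above background on every array, the 3′ minus 5′ difference was larger in Sen1ΔN by 1.24 to 4.03 log2 (median 2.38). This 3′ to 5′ gap went with strain, so its part in the results below was not tested and cannot be told apart from strain. Values with a gene-length trend removed are given, but they do not correct for it. Gene length is not the distance of a probe set from the 3′ end. The median absolute difference between replicate arrays over all genes was 0.07 log2 in the wild type and 0.11 in Sen1ΔN, against 0.46 between the strains. Across all genes limma called 3796 of 5449 at an adjusted p under 0.05, which is 69.7%, with 34.4% lower and 35.3% higher in Sen1ΔN.

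All 6 biotin genes were lower in Sen1ΔN, from the permease gene BIO5 at 18.9-fold to the ligase gene BPL1 at 3.05-fold. The differences ran from -4.24 to -1.61 log2 with a median of -2.88, whereas the median over all genes was 0.01. All 6 were lower by at least 1 log2, a threshold passed in that direction by 11.3% of all genes, and the contrast behind this count is the one known when the list was made. The arrays of the strains did not overlap for any of the 6, which held for 87.2% of all genes in either direction and for 42.9% with Sen1ΔN lower. Only 237 of the 5449 genes (4.35%) were as low as or lower than BPL1, the member with the smallest difference. The arrays read the RNA of a whole culture, so fewer cells with a transcript and less of it per cell cannot be told apart.

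**Figure D1:**
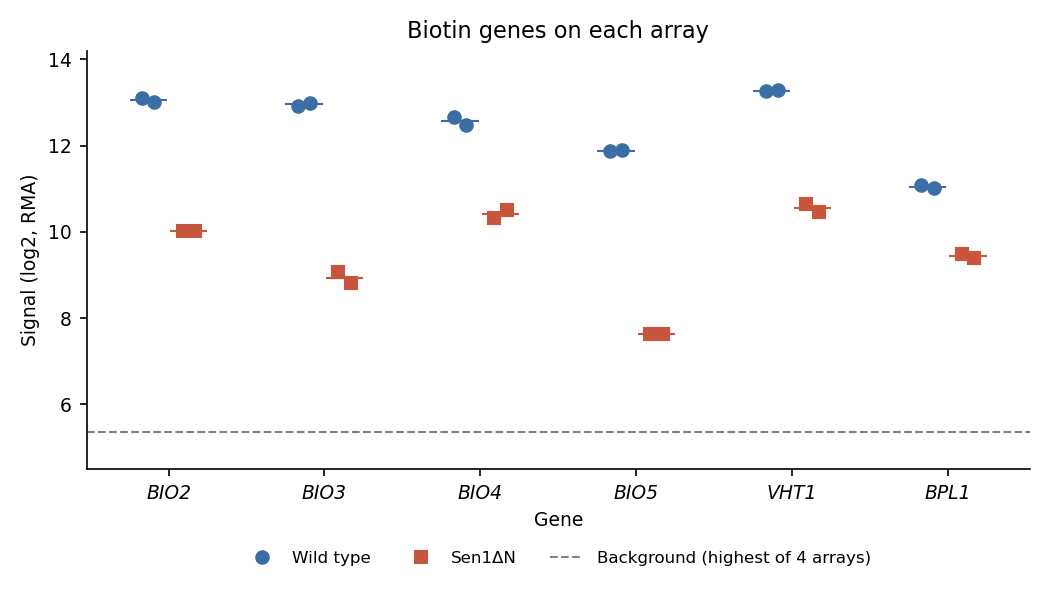
Signal of the 6 biotin genes on each array (log2, RMA). Circles are the 2 wild-type arrays, squares the 2 Sen1ΔN arrays, short lines the strain means, and the dashed line is the highest background level of the 4 arrays, 5.36 log2. For each gene both squares lie below both circles, and every signal lies above the background level.

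Among the synthesis genes, BIO3, which encodes the aminotransferase, had signals of 12.93 and 13.00 log2 in the wild type and of 9.07 and 8.81 in Sen1ΔN. Both Sen1ΔN arrays lay at least 3.86 log2 below the lower wild-type array, and the 2 Sen1ΔN arrays differed from each other by 0.26, the widest replicate gap among the 6 genes. The mean difference was -4.02 (SE 0.11, n = 2 arrays per strain), a 16.3-fold lower signal.

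BIO4, the dethiobiotin synthetase gene, read 12.65 and 12.48 in the wild type and 10.33 and 10.51 in Sen1ΔN. The strains were apart by at least 1.97 log2 on any pair of arrays, with replicate gaps of 0.17 and 0.19. The mean difference of -2.15 (SE 0.10) was the smallest of the 3 synthesis genes, a 4.43-fold lower signal.

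BIO2, the biotin synthase gene of the last step, read 13.10 and 13.00 in the wild type, and both Sen1ΔN arrays read 10.02. The replicates lay within 0.10 of each other in the wild type and within 0.0013 in Sen1ΔN. The mean difference was -3.03 (SE 0.07), an 8.16-fold lower signal.

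Both uptake genes were lower as well. BIO5, the permease gene for the precursors, read 11.87 and 11.89 in the wild type and 7.64 and 7.63 in Sen1ΔN. Its replicates differed by 0.0231 in the wild type and by 0.0074 in Sen1ΔN, and the mean difference of -4.24 (SE 0.06) was the largest of the list. On the Sen1ΔN arrays BIO5 still lay at least 2.28 log2 above background, but this does not show whether its value is a bound. All 5 MATa-specific genes examined also lay above background in this MATα strain, the lowest, BAR1, at 7.80 and 7.06.

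VHT1, the gene of the biotin symporter, read 13.26 and 13.30 in the wild type and 10.65 and 10.46 in Sen1ΔN. The mean difference was -2.72 (SE 0.09), a 6.60-fold lower signal. The gene for uptake of the finished vitamin was thus low together with those that make it from precursors.

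BPL1, the ligase gene, read 11.08 and 11.01 in the wild type and 9.48 and 9.39 in Sen1ΔN. Its mean difference was -1.61 (SE 0.07), a 3.05-fold lower signal. The Sen1ΔN arrays lay at least 1.53 log2 below those of the wild type, with a replicate gap of 0.09 in Sen1ΔN.

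The members did not differ to the same extent. Within an array, the gap between any 2 members' signals shifted between the strains for all 15 pairs, with no overlap between the arrays of the strains. Without a share over all gene pairs, which was not computed, this count does not set the members apart. The 15 pairs reuse the same 6 genes, and 87.2% of all single genes had no overlap in either direction. BIO3 and BIO4, adjacent genes that are read away from each other, differed in their strain difference by -1.88 log2 (BIO3 minus BIO4), against replicate gaps of 0.24 and 0.45 in the same quantity. BIO5 and BIO4, adjacent genes on the same strand, differed by 2.10 (BIO4 minus BIO5), against gaps of 0.19 in each strain. For BIO3 and BIO5, the lowest of the 6, the lack of overlap did not resolve them from each other. They differed by 0.22 (BIO3 minus BIO5), while the Sen1ΔN arrays alone varied by 0.25. BIO2 and VHT1 differed by -0.31 (BIO2 minus VHT1), above the gaps of 0.13 and 0.20, and VHT1 and BIO4 by 0.58 (BIO4 minus VHT1), above 0.21 and 0.38.

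**Figure D2:**
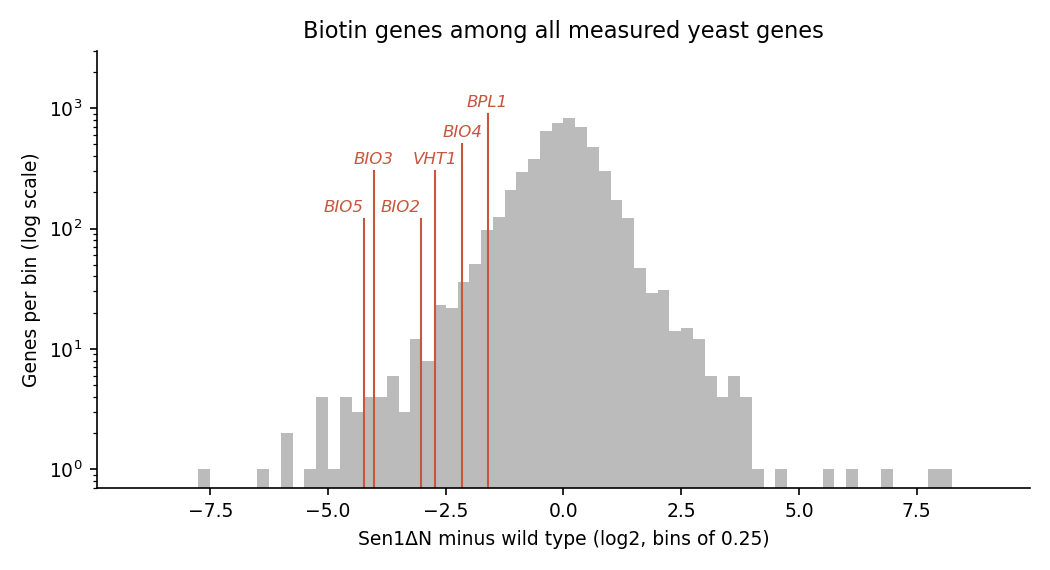
Histogram of the strain difference (Sen1ΔN minus wild type, log2, bins of 0.25) over all 5449 yeast genes, with genes per bin on a log axis. Vertical lines mark the 6 biotin genes, which all lie in the lower tail, between -4.24 (BIO5) and -1.61 (BPL1).

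Ranked from the lowest difference of all 5449 genes, BIO5 stood at position 18, BIO3 at 21, BIO2 at 40, VHT1 at 57, BIO4 at 115 and BPL1 at 237. Gene length varies with the strain difference on these arrays, so each was also set beside genes of similar length. In the 1257 genes of over 1000 to 1500 bp, which hold BIO2 (1128 bp) and BIO3 (1443 bp), the median difference was -0.17, and 12 and 7 genes were as low as BIO2 and BIO3, themselves counted. Among the 877 genes of over 1500 to 2000 bp the median was -0.03, and 3 were as low as BIO5 (1686 bp) and 16 as low as VHT1 (1782 bp). BIO4 (714 bp) was among the 13 lowest of 684 genes, with a median of 0.09, and BPL1 (2073 bp) among the 20 lowest of 767, with a median of 0.00. With the length trend removed, the differences were -4.11 for BIO5, -3.84 for BIO3, -2.82 for BIO2, -2.61 for VHT1, -2.13 for BIO4 and -1.54 for BPL1, in the same order.

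The regulators of the pathway differed from each other. VHR1 encodes the transcription factor required for the induction of VHT1 and BIO5 at low biotin, and VHR2 its homologue. VHR1 read 11.43 and 11.42 in the wild type and 11.27 and 11.19 in Sen1ΔN, a difference of -0.19 (SE 0.07) that did not pass the test (limma adjusted p = 0.0554). Centring the arrays on their medians, or eBayes with trend and robust moderation, brought it just past the threshold (limma adjusted p = 0.0488 and 0.0456), as did leaving out Sen1ΔN replicate 1 (0.0431). VHR2 fell by 1.58 log2 (SE 0.08, limma adjusted p = 0.000201), from 11.59 and 11.67 to 10.12 and 9.98.

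Among the proteins that receive biotin from Bpl1, 2 of 5 measured genes fell, 1 rose and 2 did not pass the test, beside 34.4% lower and 35.3% higher among all genes, and the median difference was 0.04. ACC1, the cytosolic acetyl-CoA carboxylase gene, read 13.75 and 13.73 in the wild type and 13.79 and 13.77 in Sen1ΔN, a difference of 0.04 (SE 0.06, limma adjusted p = 0.603). HFA1, its mitochondrial counterpart, rose by 0.71 (SE 0.07, limma adjusted p = 0.000872). PYC1 and PYC2 encode closely similar pyruvate carboxylases, whose probe sets may share targets. PYC1 fell by 0.85 (SE 0.07, limma adjusted p = 0.000573), whereas PYC2 differed by 0.12 (SE 0.07, limma adjusted p = 0.182). Quantile normalization took PYC2 past the threshold, at 0.23 (limma adjusted p = 0.0341). ARC1, whose product binds tRNA synthetases and carries biotin in yeast, fell by 0.44 (SE 0.11, limma adjusted p = 0.0168), and lost the call with the length trend removed, at -0.23 (limma adjusted p = 0.109), and without wild type replicate 2, at -0.38 (limma adjusted p = 0.0860). DUR1,2, the biotin-dependent urea amidolyase gene, was not analysed here. None of the 5 differed by 1 log2, and each differed by less than BPL1, the member with the smallest difference. The members count as chosen by these differences, so this contrast is only a description.

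**Figure D3:**
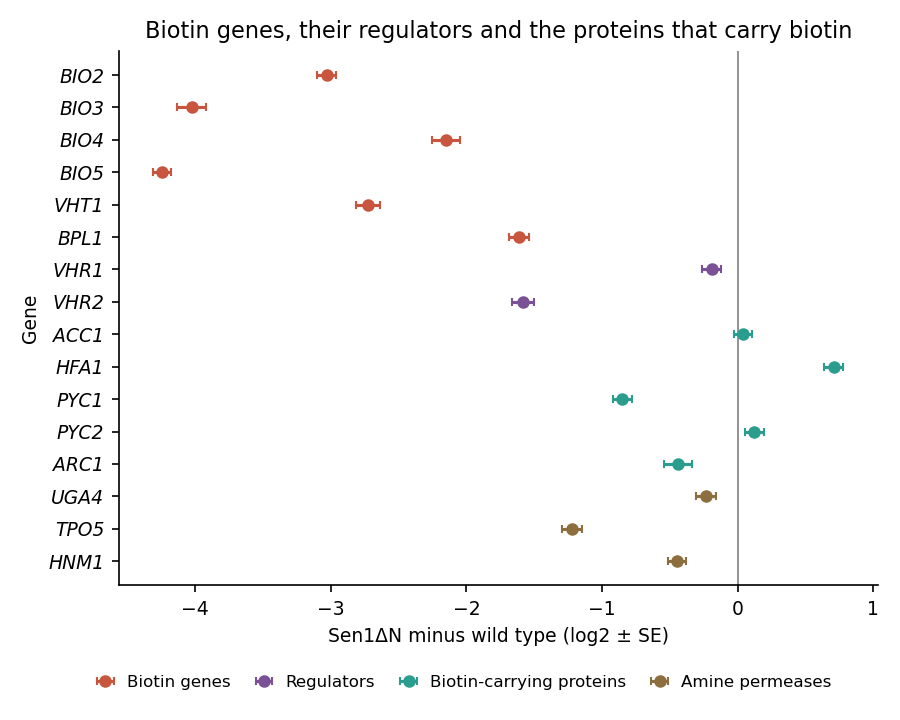
Strain difference (Sen1ΔN minus wild type, log2, points with SE from limma) of the biotin genes, the regulators VHR1 and VHR2, the genes of biotin-carrying proteins and the permease genes related to BIO5. The biotin genes lie between -4.24 and -1.61, VHR2 and TPO5 at -1.58 and -1.22, and all other genes shown between -0.85 and 0.71.

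The permeases related to Bio5 were compared to see whether transport genes of the same family were low too. All 3 fell, against 34.4% of all genes, with a median of -0.45. TPO5, a polyamine exporter gene, fell by 1.22 (SE 0.07, limma adjusted p = 0.000249), and HNM1, the choline transporter gene, by 0.45 (SE 0.07, limma adjusted p = 0.00353). UGA4, the permease gene for gamma-aminobutyrate, fell by 0.23 (SE 0.07, limma adjusted p = 0.0384), and lost the call when any 1 array was left out (limma adjusted p = 0.0567 to 0.241) and with the length trend removed (0.252).

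Of 6 measured transporter genes of the Dal5 type, the family of VHT1, 3 rose and 3 fell, beside 35.3% and 34.4% of all genes, with a median of 0.09. The unmoderated model called 1 of them higher and 1 lower. TNA1, the nicotinic acid transporter gene, fell by 1.43 (SE 0.10, limma adjusted p = 0.000406), from 12.81 and 13.01 to 11.56 and 11.40. SEO1 fell by 0.56, while THI73 rose by 0.74 and DAL5, the allantoate permease gene, by 0.56 (limma adjusted p = 0.00759, 0.000782 and 0.00362). In the unmoderated model SEO1 and DAL5 were not called (adjusted p = 0.0848 and 0.0521). No gene of this list was as low as VHT1, which counts as chosen by its difference.

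S-adenosylmethionine serves both Bio3 and Bio2, and the genes of its supply changed in opposite directions, with 3 of 6 lower and 2 higher, beside 34.4% and 35.3% of all genes, and a median of -0.36. SAM3, the high-affinity S-adenosylmethionine permease gene, fell by 2.33 (SE 0.11, limma adjusted p = 0.000171), from 10.53 and 10.50 to 8.04 and 8.32. MMP1, the permease gene for S-methylmethionine, rose by 2.71 (SE 0.09, limma adjusted p = 9.15e-05), from 6.55 and 6.39 to 9.11 and 9.26. The synthetase genes SAM1 and SAM2 are near-identical paralogs whose probe sets may share targets. SAM2 fell by 1.43 and SAM1 rose by 0.62 (limma adjusted p = 0.00049 and 0.0093), and in an unmoderated model SAM1 lost its call (adjusted p = 0.102).

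Bio2 depends on iron-sulfur clusters made in mitochondria. Of 18 genes of this assembly and its iron supply, 8 fell, 6 rose and 4 did not pass the test, with a median of -0.19, so 44.4% were called lower beside 34.4% of all genes. YAH1, the ferredoxin gene, fell by 1.40 (SE 0.09, limma adjusted p = 0.000287), the only one of the list to differ by 1 log2. The scaffold gene ISU1 fell by 0.84 and the iron carrier gene MRS3 rose by 0.84 (limma adjusted p = 0.0039 and 0.000502). In the unmoderated model ISU1 was not called (adjusted p = 0.0736). ISD11 rose by 0.64 (limma adjusted p = 0.00124), and with the length trend removed it differed by 0.08 and was not called (0.367). ISA1, ISA2 and IBA57, whose products are needed for the maturation of biotin synthase, were singled out after their values were seen and differed by 0.24, 0.20 and -0.20, of which the last 2 passed the test (limma adjusted p = 0.0366 and 0.0489). The number of genes called lower in this list was 3 without wild type replicate 2, 5 without wild type replicate 1 or without Sen1ΔN replicate 2 and 5 with the length trend removed. The number called higher was 3 without either wild-type array and 2 with the length trend removed.

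The iron regulon was examined because Aft1, its transcription factor, is known to act on VHT1 in iron-starved yeast. Of 26 genes, 15 rose, 7 fell and 4 did not pass the test, with a median of 0.48, so 57.7% rose beside 35.3% of all genes. FRE5, among the 15, read 3.71 to 4.39, below background on every array. With only genes above background on at least 2 arrays, 14 were called higher. By at least 1 log2, 5 of the 26 rose, beside 8.63% of all genes. ENB1, a siderophore transporter gene, rose by 2.98 (SE 0.12, limma adjusted p = 0.000112), FRE4, a ferric reductase gene, by 2.65 (SE 0.11, 0.000118), and HMX1, the heme oxygenase gene, by 1.76 (SE 0.14, 0.000486). TIS11, whose product promotes decay of mRNAs in iron shortage, fell by 1.79 (SE 0.09, limma adjusted p = 0.000180). No gene of this list had a difference as low as that of VHT1, a gene that counts as chosen by its difference. Without wild type replicate 1, 4 genes of the list were called lower.

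**Figure D4:**
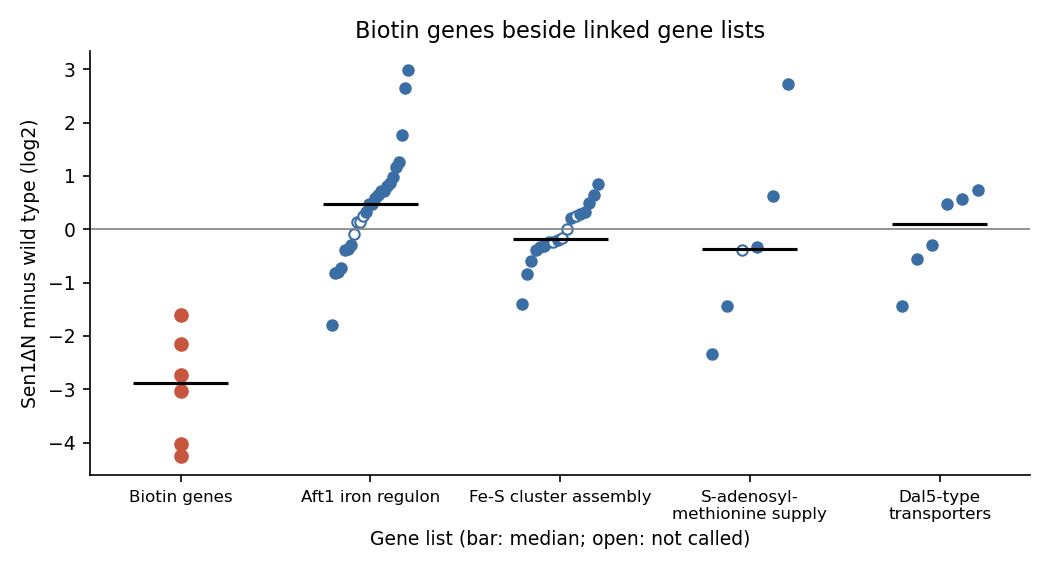
Strain difference (Sen1ΔN minus wild type, log2) of the 6 biotin genes and of the genes of 4 linked lists. Points are genes, bars list medians, and open points genes that limma did not call. The iron regulon has a median of 0.48, and the medians of the other linked lists lie between -0.36 and 0.09, against -2.88 for the biotin genes, which were not tested.

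The chromosomal surroundings of the members were also read from the arrays. BIO5, BIO4 and BIO3 lie side by side on chromosome XIV, BIO2 and VHT1 apart from each other on chromosome VII and BPL1 on chromosome IV. Of the 21 measured genes within 3 positions of a member, 8 rose, 8 fell and 5 did not pass the test, with a median of 0.13, so 38.1% were called each way, near the shares of 35.3% and 34.4% among all genes. By at least 1 log2, 4 of the 21 rose and 4 fell, beside 8.63% and 11.3% of all genes. The BIO cluster is bounded by HOL1, a transporter gene, and MNT4, a mannosyltransferase gene. HOL1 read 11.31 and 11.55 in the wild type and 11.24 and 11.10 in Sen1ΔN, a difference of -0.26 (SE 0.11, limma adjusted p = 0.0853). MNT4 read 10.31 on both wild-type arrays and 10.37 and 10.25 in Sen1ΔN, a difference of -0.0036 (SE 0.07, limma adjusted p = 0.969). Beyond MNT4 lies FRE4, with the rise of 2.65 given above. The next measured gene on either side of the 3 adjacent biotin genes thus did not pass the test.

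Around BIO2, the chaperone gene ZUO1 fell by 0.29 (SE 0.09, limma adjusted p = 0.0356) and IMA1, one of a family of similar isomaltase genes, rose by 1.32 (SE 0.14, limma adjusted p = 0.00121). ZUO1 lost its call without wild type replicate 1 (limma adjusted p = 0.201), without wild type replicate 2 (0.0569), without Sen1ΔN replicate 2 (0.0879), after quantile normalization (0.224) and with the length trend removed (0.443). Beside VHT1, the elongation factor gene SPT4 rose by 1.24 (SE 0.07, limma adjusted p = 0.000209), and the nearest measured gene on the other side, YGR067C, differed by 0.22 (SE 0.13, limma adjusted p = 0.196). Without Sen1ΔN replicate 1 that difference was 0.38 and passed the test (limma adjusted p = 0.0247). Beside BPL1, the cardiolipin synthase gene CRD1 fell by 0.61 (SE 0.07, limma adjusted p = 0.00155) and RPO21, the gene of the largest RNA polymerase II subunit, rose by 0.76 (SE 0.09, limma adjusted p = 0.00146).

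**Figure D5:**
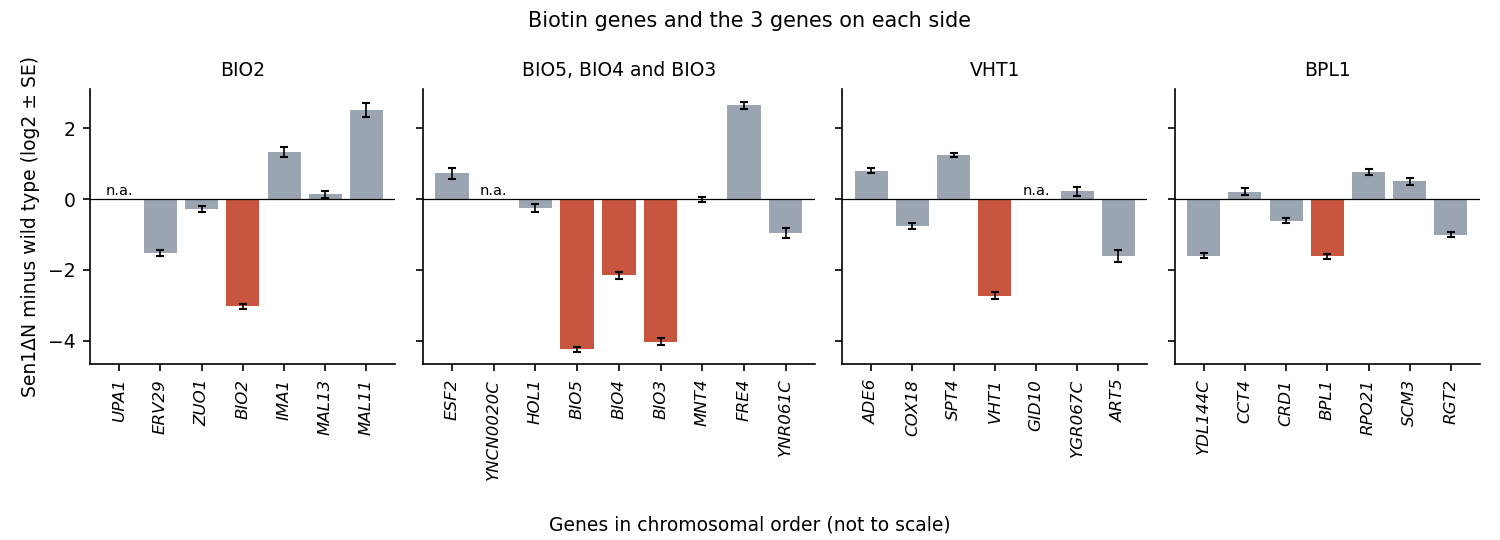
Strain difference (Sen1ΔN minus wild type, log2, bars with SE from limma) of the biotin genes (red) and the 3 genes on each side (grey) in chromosomal order, not to scale. Genes marked n.a. were not measured here, as no probe set was annotated to them alone. In the second panel the bars of BIO5, BIO4 and BIO3 reach -4.24, -2.15 and -4.02, while HOL1 and MNT4 beside them stand at -0.26 and -0.0036.

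The genes with the most similar array profile were sought for each member, by the Euclidean distance between log2 values centred on each gene's mean over the 4 arrays. This measure mostly reflects the size of the strain difference, since replicates lie close together. INO1, of inositol synthesis, and PRY1, a gene of sterol-binding secreted protein, were nearest to BIO3 (distance 0.15 and 0.08 log2). BNA2, of nicotinic acid synthesis, and MFA1, of the mating pheromone a-factor, were nearest to BIO5 (0.15 and 0.10). The nearest to BIO4 were SIL1 and MPD1, both of endoplasmic reticulum protein folding (0.08 and 0.09). ULI1 and YNL190W were nearest to BIO2 (0.09 and 0.17), URA10 and SSA4 to VHT1 (0.13 and 0.14), and YDL144C and YPL162C to BPL1 (0.02 and 0.05). YDL144C, which lies 3 genes from BPL1, fell by 1.60 log2 (SE 0.07, limma adjusted p = 0.00015), while the genes between them, CCT4 and CRD1, differed by 0.20 and -0.61. No member was the nearest profile of another, and the closest members were BIO3 and BIO5, at a distance of 0.28.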

How the data were processed

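The authors deposited log2 signals, with 1 value for each probe set on every array. RMA and the Affymetrix Expression Console are named in the submitters' processing notes, without versions. RMA brings arrays to a common distribution, which hides a change in total mRNA. Of 10928 probe sets, 7244 had 1 annotated gene and 5498 of these were from S. cerevisiae. Their mean per gene gave 5449 genes. The 1746 S. pombe probe sets gave the background level as their 95th percentile on each array (5.23 to 5.36 log2), and 97.9% to 98.3% of the yeast genes lay above it. No coordinates are printed, since no source used here gives the array's genome build. Gene order and length come from the R64 reference table.

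Groups came from the sample titles. Sen1ΔN minus wild type was fitted over all genes with limma 3.58.1 in R 4.3.3 (lmFit and eBayes, two-sided, 2 residual degrees of freedom, Benjamini-Hochberg adjustment). The fit was also run on simulated data, a check of the code and not of the calls made here. Genes with an adjusted p under 0.05 were called. With 2 arrays per strain, the smallest p of an exact permutation test is 0.33. The number of arrays limits the precision. The members and lists were chosen with earlier results of these data known. The named genes were all members, SEN1, all genes of the short lists (biotin-carrying proteins, regulators, permeases related to BIO5), up to 4 called genes with the largest difference of each other list, the nearest measured neighbours and the 2 most similar profiles per member. As alternatives, each array was left out in turn, and the fit was run with a replicate block, after quantile normalization, after median centring, with a filter on background, eBayes with trend and robust moderation, an unmoderated model, the brightest probe set and removal of a loess trend on gene length (span 0.5, degree 1).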

Additional observations from a re-analysis of the deposited data

How the results depend on the processing

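The strain differences of the 6 biotin genes kept their sign after quantile normalization or median centring and with the length trend removed. They also did so when an array was left out, but could not do otherwise, since the arrays of the strains did not overlap. The replicate block could not alter them, since both strains had the same replicate numbers. With 1 probe set per gene, choosing the brightest probe set could not alter them either. The other alternatives change only the test or the genes tested. With the length trend removed they were -2.82 for BIO2, -3.84 for BIO3, -4.11 for BIO5, -2.61 for VHT1 and -1.54 for BPL1, and quantile normalization gave -2.94 for BIO2 and -4.20 for BIO5. These shifts exceeded each gene's replicate SD pooled over the strains. Leaving out 1 array gave -3.08 to -2.98 for BIO2, -4.16 to -3.89 for BIO3, -2.24 to -2.05 for BIO4, -4.25 to -4.23 for BIO5, -2.82 to -2.62 for VHT1 and -1.66 to -1.56 for BPL1. The unmoderated model called 2445 genes (1236 lower and 1209 higher) in place of 3796, by its construction without a spread shared between genes. Leaving out 1 array gave 2907 to 3879 calls, with 1457 to 1967 lower and 1450 to 1948 higher; the lone array is then assumed to vary like the other strain's. The replicate block gave 3471 calls and left each biotin gene's difference unchanged, at -3.03 for BIO2. What same-numbered arrays shared beyond a number is not known here, and the correlation of their deviations was -0.03. Under the block ARC1 (adjusted p = 0.0535) and UGA4 (0.0750) were not called. MNT4, not called, ran from -0.061 to 0.054 when 1 array was left out, and turned to 0.0056 after quantile normalization and 0.12 with the length trend removed. The unmoderated model called 2 iron-sulfur assembly genes, 4 iron regulon genes, 1 Dal5-type gene and 5 neighbours lower, in place of 8, 7, 3 and 8. Of the 35 other genes named by list, neighbour position or as SEN1, 23 kept direction and call throughout. The biotin genes lay above background on every array, as did 97.9% to 98.3% of the yeast genes on each array. Whether low signal limited their differences was not tested.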
